A study of Saccharomyces cerevisiae with 10 samples.

Results

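The genes described here encode the proteins of the small subunit of the cytosolic ribosome in the budding yeast Saccharomyces cerevisiae. They were taken as every row of the deposited gene count table whose symbol starts with RPS and a digit, which gave 56 of 6059 genes. Of these, 48 form 24 pairs of an A and a B copy and 8 are single-copy genes, so that the 56 genes stand for 32 proteins. The messenger RNA was measured by sequencing in 4 groups. Z100, an adapted strain obtained by evolution under mild heat, was sampled after 1 h of heat shock at 50 °C (n = 3) and under the label 30 °C (n = 3). XH7, the strain it is set against, was sampled in the same way at 50 °C (n = 2) and at 30 °C (n = 2). The labels give no other genotype, and the changes that Z100 carries in its genome were not analysed here. The protocol text speaks of an ice-water mixture beside the heat shock, so what the cells labelled 30 °C went through before harvest cannot be told from it. The labels do not tell whether the replicates are independent cultures, and the p-values therefore refer to library-to-library spread, part of which may be technical.

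The small subunit binds messenger RNA and checks that the transfer RNA in the decoding centre matches the codon, while the large subunit joins the amino acids. Its body, platform and head surround the path of the messenger RNA, and the head moves as transfer RNAs pass through. In growing yeast the ribosomal protein genes are among the most strongly transcribed genes. Rap1 binds their promoters and recruits Fhl1 and Ifh1, and signalling through TOR and protein kinase A switches this transcription down under stress. Most of these genes are duplicated, a remnant of an ancient whole-genome duplication, and many copies carry an intron, which is rare among yeast genes.

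The promoters of RPS2 and RPS13 are shown because they hold the core Rap1 motif, the letters ACCCNNACA, in capitals here with 36 bases on either side. They are read 5′ to 3′ on the coding strand from the R64 genome, with the positions chrVII:277193-277273 for RPS2 and chrIV:579192-579272 for RPS13. The last base of the motif lies 380 bases before the first base of the start codon in RPS2 and 222 bases before it in RPS13.
RPS2: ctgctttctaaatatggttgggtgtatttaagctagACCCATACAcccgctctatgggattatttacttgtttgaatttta
RPS13: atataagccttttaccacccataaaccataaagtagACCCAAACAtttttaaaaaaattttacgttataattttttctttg
Searched on both strands between 100 and 599 bases before the start codon, this motif was present in 18 of 56 small subunit genes, 32.1%, against 361 of 5999 genes, 6.02%. In the 74 large subunit genes the share was 50%. The letters GACGC, found in sites of Fhl1, were present in 50% of the small subunit promoters and 32.4% of all promoters. The stress response element CCCCT stood in 33.9% against 35.2% of all, a run of 8 T in 42.9% against 40.9%, and the PAC motif GATGAG in 21.4% against 27.8%. The letters GGGTAA of Reb1 were present in 14.3% against 25%, CCCTAA of Tbf1 in 5.36% against 12.7%, and the Abf1 core, CGT and ACG with 6 bases between them, in 1.79% against 3.4%. A match is a run of letters and not a measured site, and these motifs may overlap one another.

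Library totals lay between 51901045 and 81442848 counted reads, and each of the 56 genes had between 789 and 445034 counts in every library. The heat label was checked by HSP26, HSP104 and SSA4, which were higher in the heat-shocked libraries of both strains by 6.33 to 14.2 on the log2 scale. The heat-shocked libraries varied among themselves more than the others did. CPM here are reads of a gene per 1e+06 reads after scaling between libraries. The median small subunit gene had a log2 CPM whose SD was 0.501 for Z100 libraries at 50 °C and 0.142 for those at 30 °C, and it was 1.05 in XH7 at 50 °C and 0.123 in XH7 at 30 °C. All 56 genes were highest in replicate 2 of Z100 at 50 °C among its 3 libraries, and all 56 were highest in replicate 2 of XH7 at 50 °C. The median gene stood 1.76-fold above the mean of the other libraries in Z100 replicate 2 and 2.796-fold above replicate 1 in XH7 replicate 2. HSP26 went the other way, with 49620, 29530 and 35305 CPM in Z100 at 50 °C and 38512 and 18000 CPM in XH7 at 50 °C. Some results that turn on these libraries are given with and without them. Ratios between the A and B copy of a pair varied less than the levels of single genes: their median SD was 0.188 for Z100 at 50 °C and 0.134 at 30 °C, and 0.225 for XH7 at 50 °C and 0.0386 at 30 °C.

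Together the 56 genes took 0.754 ± 0.313% of all counts in Z100 at 50 °C, against 9.49 ± 0.566% in Z100 at 30 °C (SD, n = 3 each). In XH7 they took 0.978 ± 0.753% at 50 °C, against 10.6 ± 0.111% at 30 °C (SD, n = 2 each). The large subunit genes moved alongside, with 0.829% and 11.4% in Z100 and 1.04% and 13.4% in XH7, again with 50 °C before 30 °C. These are shares of the messenger RNA in a library. In bulk samples, less RNA per cell and fewer cells that make it cannot be told apart.

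Levels of different genes were compared as the deposited FPKM, which are counts scaled by coding length and library total. The median of the 56 genes was 146.8, 369.8 and 221.9 FPKM in the Z100 libraries at 50 °C, against 3135, 2254 and 2914 FPKM in Z100 at 30 °C. In XH7 it was 134.8 and 465.9 FPKM at 50 °C, against 3826 and 3991 FPKM at 30 °C. The genes differed widely among themselves: the highest mean was 34.6 times the lowest for Z100 at 50 °C and 45.8 times at 30 °C, and 64.6 times for XH7 at 50 °C and 37.8 times at 30 °C. RPS9A was the lowest gene in each of the 10 libraries, with means of 33.02 ± 13 and 323 ± 132 FPKM in Z100 at 50 °C and 30 °C, and 27.6 ± 9.6 and 331 ± 31 FPKM in XH7 at 50 °C and 30 °C (SD). RPS31, which encodes ubiquitin fused to its ribosomal protein, was the highest in all 5 libraries at 30 °C, with 14767 ± 276 FPKM in Z100 and 12524 ± 89 FPKM in XH7. At 50 °C the highest gene was RPS25A in the 3 Z100 libraries, with 1143 ± 310 FPKM, and RPS14A in the 2 XH7 libraries, with 1782 ± 1110 FPKM.

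**Figure D1:**
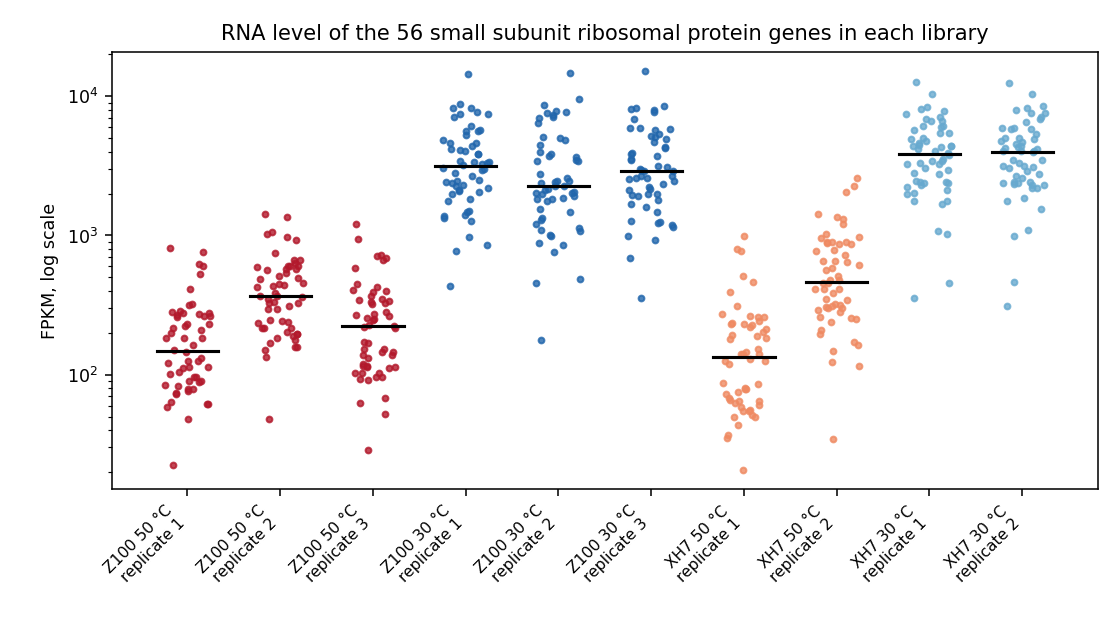
FPKM of the 56 small subunit ribosomal protein genes in each of the 10 libraries, on a log scale, 1 point per gene, with the median as a black line. The medians of the 50 °C libraries lie between 134.8 and 465.9 FPKM and those of the 30 °C libraries between 2254 and 3991 FPKM.

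Every small subunit gene was lower after heat shock in both strains. In Z100, all 56 of 56 were called lower (edgeR's quasi-likelihood test, adjusted p under 0.05), where 36.2% of all tested genes were. In XH7 all 56 were also lower, where 32% of all genes were. The median log2 fold change was -2.91 in Z100, a level 7.51-fold lower, and -2.98 in XH7, 7.89-fold lower, while the median of all genes was -0.05 in Z100 and 0.01 in XH7. In both strains every heat-shocked library was below every 30 °C library in all 56 genes, which held for 38.8% of all genes in Z100 and 41.9% in XH7. The libraries stood apart the other way, with all heat-shocked ones higher, in 36.4% of all genes in Z100 and 40.1% in XH7. For the large subunit 71 of 74 genes were lower and 1 higher in Z100, and 73 were lower and 1 higher in XH7, with medians of -2.86 and -3.21. All 56 calls in each strain held when any library was left out, yet the size in XH7 rested on which heat-shocked library was used: its median was -3.92 without replicate 2 and -2.46 without replicate 1. In Z100 it was -3.28 without replicate 2.

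The size of the fall differed from gene to gene. RPS22A, which encodes a protein of the body, had 72.3, 165 and 69.1 CPM in Z100 at 50 °C, against 1752, 1782 and 1832 CPM in Z100 at 30 °C. Its log2 fold change of -4.13 ± 0.47 (SE, adjusted p = 2.5e-05, edgeR) was the largest fall in Z100. The next largest there were RPS0B (-4.02 ± 0.47), RPS9B (-3.88 ± 0.50), RPS2 (-3.71 ± 0.41) and RPS7A (-3.68 ± 0.47). In XH7 the largest fall was in RPS9B, whose protein acts in decoding accuracy. It had 42.8 and 145 CPM in XH7 at 50 °C, against 2863 and 2524 CPM in XH7 at 30 °C, a log2 fold change of -4.84 ± 0.64 (SE, adjusted p = 0.00010, edgeR). RPS0B (-4.54 ± 0.59), RPS22A (-4.35 ± 0.58), RPS24B (-4.25 ± 0.60) and RPS1A (-4.23 ± 0.59) followed. RPS22A, RPS0B and RPS9B were thus among the 5 largest falls of both strains. In XH7 their log2 fold changes were -3.8, -4.0 and -4.2 without XH7 50 °C replicate 1, and -5.2, -5.2 and -5.9 without replicate 2.

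The smallest falls were in RPS30A, a very short protein of the body, in Z100, and in RPS14B in XH7. RPS30A had 91.9, 171 and 142 CPM in Z100 at 50 °C, against 367, 279 and 385 CPM in Z100 at 30 °C (log2 fold change -1.35 ± 0.31, adjusted p = 0.0026, edgeR). RPS21B (-1.48 ± 0.36), RPS29A and RPS23A (both -1.76, SE 0.51 and 0.30) and RPS30B (-1.79 ± 0.46) were next in Z100. RPS14B had 43.0 and 66.7 CPM in XH7 at 50 °C, against 153 and 142 CPM in XH7 at 30 °C (-1.43 ± 0.27, adjusted p = 0.00099, edgeR). RPS23A (-2.02 ± 0.37), RPS14A (-2.06 ± 0.43), RPS30A (-2.08 ± 0.38) and RPS25A (-2.10 ± 0.32) were next in XH7. RPS23 acts in decoding accuracy, and RPS25 sits in the head near the exit of transfer RNA. Even these genes had no library at 50 °C above any library of the same strain at 30 °C.

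Among the 8 single-copy genes the log2 fold change ran from -3.71 (RPS2) to -2.85 (RPS15) in Z100 and from -3.80 (RPS2) to -2.55 (RPS31) in XH7. RPS2 and RPS3 line the channel where messenger RNA enters, and RPS3 changed by -3.55 ± 0.40 in Z100 and by -3.16 ± 0.48 in XH7. The head proteins RPS12 and RPS20 changed by -2.88 ± 0.27 and -2.88 ± 0.51 in Z100 and by -3.02 ± 0.33 and -2.85 ± 0.62 in XH7. RPS13, of the body, changed by -3.12 ± 0.42 in Z100 and by -3.01 ± 0.52 in XH7. RPS31 changed by -3.25 ± 0.30 in Z100 and RPS15 by -2.63 ± 0.34 in XH7.

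The medians of gene groups by position, origin or structure lay between -3.23 and -2.87 in Z100 and between -3.04 and -2.91 in XH7. The 22 head genes had a median of -2.88 in Z100 and -2.91 in XH7, and the 34 body and platform genes -3.09 and -3.03. The 24 genes whose proteins have a counterpart in bacteria had -3.23 in Z100 and -3.04 in XH7, and the other 32 had -2.87 and -2.96. The 36 genes with an intron had -2.88 in Z100 and -2.97 in XH7, against -3.14 and -2.99 in the 20 without. The 18 genes with the Rap1 letters in the promoter had -3.06 and -3.004, against -2.88 and -2.95 in the 38 without them. All members of each group were lower in both strains, and the differences between groups were not tested.

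**Figure D2:**
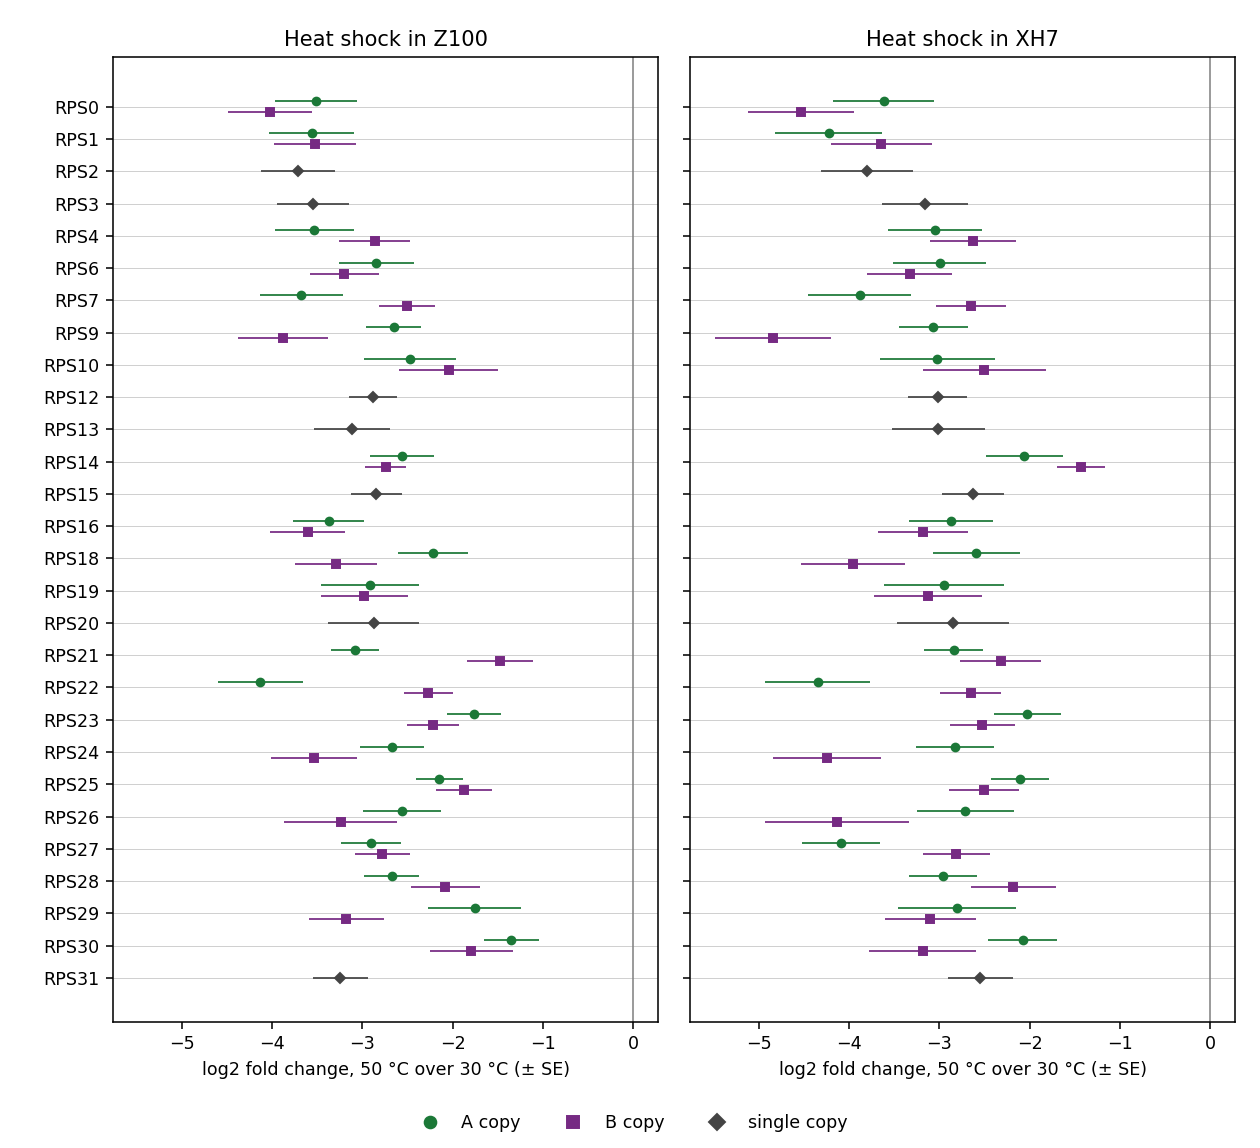
Log2 fold change with heat shock (50 °C over 30 °C, ± SE from edgeR) of 49 small subunit genes in Z100 (left) and XH7 (right), with A copies as green circles, B copies as purple squares and single-copy genes as grey diamonds. All 49 points of both panels lie left of 0, between -4.13 and -1.35 in Z100 and between -4.84 and -1.43 in XH7.

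Of 13 genes that control this regulon, 5 were higher and 6 lower with heat in Z100, where 33.8% of all genes were higher and 36.2% lower. In XH7, 2 were higher and 5 lower, where 31.3% and 32% of all genes were. IFH1, the coactivator that binds Fhl1, had 1.7, 3.4 and 2.8 CPM in Z100 at 50 °C, against 44.5, 39.98 and 48.8 CPM in Z100 at 30 °C, and 4.4 and 10.7 CPM in XH7 at 50 °C, against 94.7 and 113 CPM in XH7 at 30 °C. Its log2 fold change was -4.08 ± 0.36 in Z100 and -3.78 ± 0.42 in XH7 (adjusted p = 4.3e-06 and 3.7e-05, edgeR). FHL1 was lower in both, with -1.40 in Z100 and -0.82 in XH7, as were the kinase genes SCH9 (-2.42 and -1.95) and YPK3 (-1.32 and -1.02), which act below TOR. SFP1, an activator that leaves the nucleus under stress, rose by 1.39 in Z100 and by 0.95 in XH7, and TOR1 rose by 1.01 and 1.12. REB1 rose by 1.97 ± 0.17 in Z100 and had 0.43 ± 0.20 in XH7 (adjusted p = 0.085, edgeR), a difference of 1.53 ± 0.26 between the strains (adjusted p = 0.017, edgeR). RAP1 changed little, by -0.32 ± 0.13 in Z100 (adjusted p = 0.043) and -0.05 ± 0.15 in XH7 (adjusted p = 0.79).

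Of 7 genes whose products work with small subunit proteins, 6 were lower and 1 higher in both strains. Of all genes, 36.2% were lower and 33.8% higher in Z100, and 32% and 31.3% in XH7. ASC1, a protein on the outside of the head, had log2 fold changes of -4.13 ± 0.35 in Z100 and -3.26 ± 0.42 in XH7. TSR2, the chaperone that brings Rps26 to the subunit, had -3.76 ± 0.56 in Z100 and -5.596 ± 0.75 in XH7, and LTV1, an assembly factor that holds Rps3, had -2.76 ± 0.34 and -4.75 ± 0.45. The exception was YAR1, the dedicated chaperone of newly made Rps3. It had 361, 490.5 and 470.5 CPM in Z100 at 50 °C, against 26.1, 17.5 and 23.6 CPM in Z100 at 30 °C, and 312 and 507 CPM in XH7 at 50 °C, against 57.5 and 61.3 CPM in XH7 at 30 °C. YAR1 rose by 4.30 ± 0.26 in Z100 and by 2.79 ± 0.30 in XH7 (adjusted p = 4.2e-07 and 2.7e-05, edgeR), a difference of 1.51 ± 0.36 between the strains (adjusted p = 0.047, edgeR), while RPS3 fell in the same libraries.

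The A and B copies of a pair make nearly the same protein. In 9 pairs, among them RPS4, RPS18 and RPS24, the RefSeq proteins were identical, in 7 they differed at 1 residue, and the least alike were those of RPS7, with 87.9% identity. The coding sequences were between 84.3% (RPS27) and 99.2% (RPS6) identical, with a median of 92.7%. Stretches of 90 coding bases are shown for a pair whose balance differed between the strains (RPS14) and for the pair with the lowest A share (RPS9), each with the bases that differ between the copies in capitals. They come from the R64 genome, 5′ to 3′ on the coding strand, and cover coding bases 11 to 100 of RPS14A (YCR031C, chromosome III 177500 to 178220, reverse strand), 14 to 103 of RPS14B (YJL191W, chromosome X 73787 to 74611, forward strand) and 1 to 90 of both RPS9 copies.
RPS14A: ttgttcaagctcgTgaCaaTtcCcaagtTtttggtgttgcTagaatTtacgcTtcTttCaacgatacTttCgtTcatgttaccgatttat
RPS14B: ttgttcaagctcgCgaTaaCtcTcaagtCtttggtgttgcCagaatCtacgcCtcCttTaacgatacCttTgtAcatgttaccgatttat
RPS9A: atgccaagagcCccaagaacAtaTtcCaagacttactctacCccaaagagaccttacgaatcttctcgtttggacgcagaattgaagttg
RPS9B: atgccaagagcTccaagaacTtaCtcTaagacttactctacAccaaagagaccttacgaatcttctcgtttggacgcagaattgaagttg
In these stretches the copies differed at 13 bases in RPS14 and 5 in RPS9. In 20 pairs every run of 100 coding bases of either copy was found nowhere else in the reference genome. Among the exceptions were RPS24, RPS4 and RPS6, where in the less distinct copy 82.9%, 86.8% and 46.6% of such runs were unique. How reads that match both copies were counted is not given in the sources used here, so the balance of such pairs is uncertain. The genomes of XH7 and Z100 may also differ from the reference in these genes.

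Most pairs were expressed unevenly. Counted as the share of the A copy in the FPKM of both, 11 pairs had A above 50% in all 10 libraries, 6 had A below 50% in all and 7 crossed 50%. Averaged over the 4 groups, RPS14 leaned most to the A copy, with 84.7 ± 1.7% A at 50 °C and 82.3 ± 5.2% at 30 °C in Z100, and 93.3 ± 1.0% at 50 °C and 95.8 ± 0.1% at 30 °C in XH7 (SD). In Z100 at 30 °C alone, RPS25 (84.8%) and RPS22 (83.01%) had higher A shares. RPS25, RPS30 and RPS24 followed, with averages over the 4 groups of 82.2%, 76.6% and 75.4%. RPS9 leaned most to the B copy, with 11.4% A on average, followed by RPS16 (23.3%), RPS27 (27.7%) and RPS6 (28.7%). The most even pairs by this average were RPS1 (47.2%), RPS23 (46.1%), RPS21 (54.1%) and RPS0 (55.5%). Some single groups were less even. RPS21 had 71.6% A in Z100 at 30 °C, RPS0 had 59.2% in Z100 and 63.1% in XH7 at 50 °C, and RPS1 had 41.5% in XH7 at 50 °C.

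**Figure D3:**
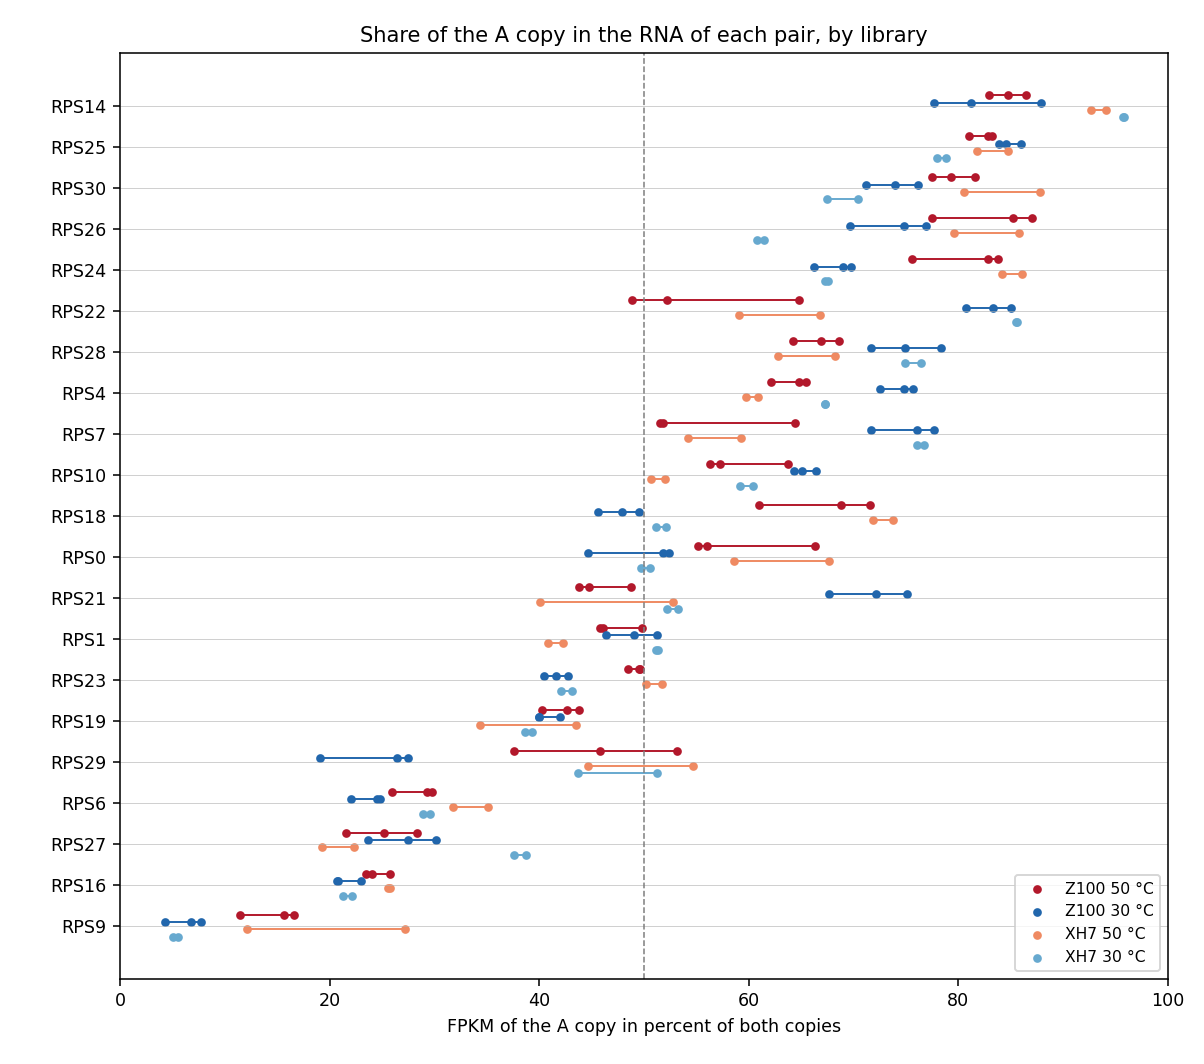
Share of the A copy in the FPKM of both copies, in percent, for 21 pairs, with 1 point per library and a line over the range of each group (Z100 50 °C dark red, Z100 30 °C dark blue, XH7 50 °C orange, XH7 30 °C light blue). Averaged over the groups, RPS14 lies farthest to the A side, with group means from 82.3% to 95.8%, and RPS9 farthest to the B side, with group means from 5.3% to 19.6%.

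Heat shock changed the balance of many pairs, and in both strains about as often to the A as to the B copy. The ratio of A to B counts was tested with limma over all 60 A/B pairs of the table. Of these 60, 24 are the small subunit pairs themselves and 32 are large subunit pairs. The share of all pairs thus describes mostly ribosomal protein pairs. In Z100, 11 of 24 small subunit pairs changed, 6 towards A and 5 towards B, where 36.7% of all 60 pairs did. In XH7, 16 of 24 changed, 8 towards each copy, where 50% of all pairs did. A fit of the XH7 libraries alone called 7. The XH7 calls of RPS0, RPS1, RPS4, RPS10, RPS23, RPS25 and RPS28 also ended when single XH7 libraries were left out. Of these, 9 pairs were called in both strains, each in the same direction. RPS9, RPS18, RPS23, RPS24 and RPS26 moved to the A copy, and RPS4, RPS7, RPS22 and RPS28 to the B copy. Over the 24 pairs the changes in Z100 and XH7 correlated with r = 0.795 (Pearson) and rho = 0.801 (Spearman), a description over pairs that share libraries. An exact two-sided permutation test of the temperature labels within strain, which cannot go below p = 0.0167 here, gave that smallest value to 16 small subunit pairs (adjusted p = 0.037 over 60 pairs, of which 45% were called).

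RPS22 moved most in Z100. Its A share was 52.1, 64.8 and 48.8% in Z100 at 50 °C, against 80.8, 85.0 and 83.3% in Z100 at 30 °C, and 59.1 and 66.8% in XH7 at 50 °C, against 85.6 and 85.5% in XH7 at 30 °C. The groups did not overlap in either strain. The log2 ratio of A to B changed by -1.98 ± 0.25 in Z100 and by -1.80 ± 0.30 in XH7 (SE, adjusted p = 0.00031 and 0.0019, limma). The A copy of this pair has no intron. The B copy has an intron that holds the small nucleolar RNA gene SNR44, so its RNA overlaps another annotated gene. RPS7, whose copies are the least alike, behaved in the same way: its A share was 55.9 ± 7.4% in Z100 at 50 °C, against 75.1 ± 3.1% in Z100 at 30 °C (SD, n = 3 each), and 56.7 ± 3.5% in XH7 at 50 °C, against 76.4 ± 0.5% in XH7 at 30 °C (SD, n = 2 each). Its log2 ratio changed by -1.25 ± 0.22 in Z100 and by -1.30 ± 0.27 in XH7 (adjusted p = 0.0015 and 0.0045, limma).

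RPS9 moved most in XH7 and in the other direction. The A share was 15.7, 11.4 and 16.6% in Z100 at 50 °C, against 7.7, 4.3 and 6.8% in Z100 at 30 °C, and 27.1 and 12.1% in XH7 at 50 °C, against 5.5 and 5.0% in XH7 at 30 °C. All heat-shocked libraries were above all others. The log2 ratio changed by 1.38 ± 0.37 in Z100 and by 2.03 ± 0.45 in XH7 (adjusted p = 0.015 and 0.0063, limma). Both copies of RPS9 have an intron, and in yeast the splicing of RPS9A is known to be held back by the Rps9 protein. The call in Z100 ended without Z100 30 °C replicate 2 or Z100 50 °C replicate 3 (adjusted p up to 0.060, limma), and in XH7 the change came to 2.75 when XH7 50 °C replicate 2 was left out and to 1.31 when replicate 1 was.

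RPS18 and RPS24 encode identical proteins from both copies and shifted to A. RPS18, a head protein that touches the transfer RNA in the peptidyl site, had an A share of 67.1 ± 5.5% in Z100 at 50 °C, against 47.7 ± 2.0% in Z100 at 30 °C (SD, n = 3 each), and of 72.8 ± 1.3% in XH7 at 50 °C, against 51.6 ± 0.7% in XH7 at 30 °C (SD, n = 2 each). The more abundant copy in Z100 was thus A at 50 °C and B at 30 °C. Its log2 ratio changed by 1.17 ± 0.17 in Z100 and by 1.33 ± 0.21 in XH7 (adjusted p = 0.00067 and 0.0017, limma). RPS24, of the body, changed by 0.98 ± 0.19 in Z100 and by 1.47 ± 0.23 in XH7 (adjusted p = 0.0028 and 0.0017, limma). RPS26, at the exit of messenger RNA, changed by 0.85 ± 0.27 in Z100 and by 1.63 ± 0.33 in XH7 (adjusted p = 0.033 and 0.0042, limma), and the Z100 call ended when any of 4 Z100 libraries was left out. RPS23 shifted less, by 0.45 ± 0.10 in Z100 and 0.49 ± 0.12 in XH7. RPS4 changed by -0.70 ± 0.11 in Z100 and -0.44 ± 0.14 in XH7, and RPS28 by -0.60 ± 0.16 and -0.71 ± 0.20. The RPS28 call in Z100 ended without replicate 2 of Z100 at 30 °C or at 50 °C (adjusted p up to 0.059, limma).

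In 11 pairs the share of the copy that was more abundant at 30 °C was smaller at 50 °C in both strains, and in 7 pairs it was larger in both. Of the 9 pairs with identical proteins, 4 were called in Z100 and 6 in XH7. Of the 20 pairs whose copies are distinct over every run of 100 bases, 9 were called in Z100 and 14 in XH7. These counts lie near the 11 and 16 of 24 called over all small subunit pairs. Among the pairs called in neither strain by limma were RPS6, RPS14, RPS16 and RPS19. RPS6 and RPS16 were still among the 16 pairs at the smallest p of the permutation test. Their log2 ratios changed by 0.31 and 0.28, averaged over both strains, and their A shares at 50 °C and 30 °C did not overlap in either strain. The same permutation test gave p = 0.40 for RPS14 and 0.77 for RPS19.

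**Figure D4:**
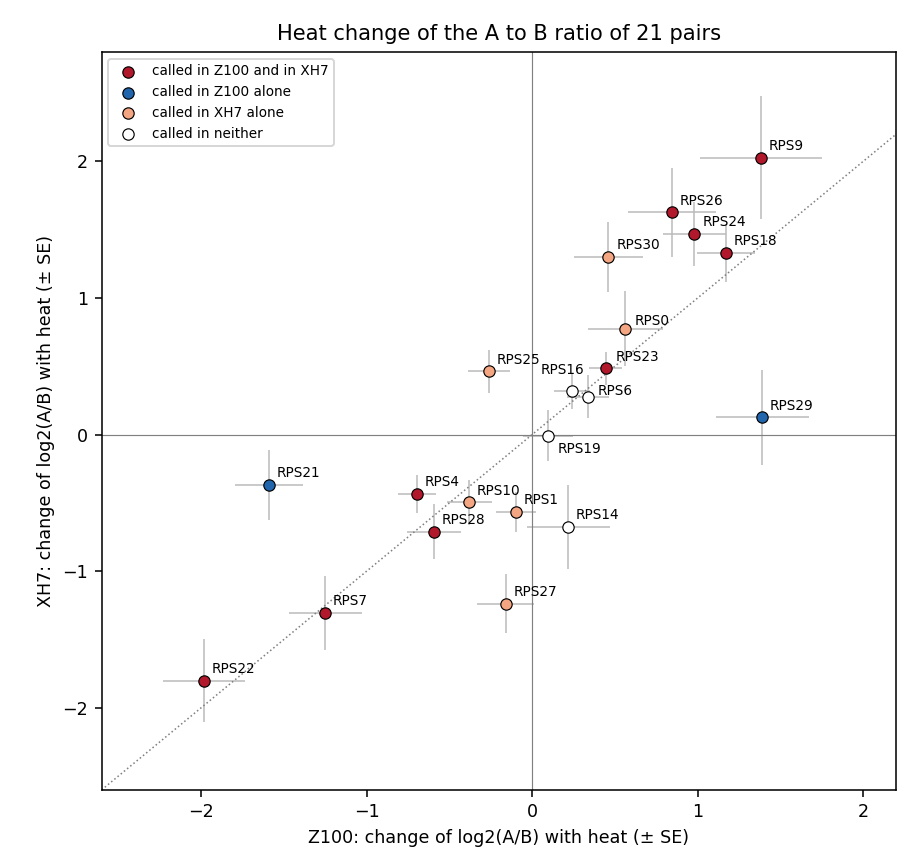
Change with heat shock of the log2 ratio of A to B counts (± SE from limma) in Z100 on the horizontal axis and in XH7 on the vertical axis for 21 pairs, with the dotted line at equal change and fill colour by which strain had a call. The 9 pairs called in both strains lie in the upper right or lower left, from RPS22 (-1.98 and -1.80) to RPS9 (1.38 and 2.03). RPS21, RPS27 and RPS29 are among the pairs that lie away from the line.

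Some pairs were called in a single strain. In Z100 the A share of RPS21, a small protein of the body beside Rps0, was 48.7, 44.7 and 43.8% at 50 °C, against 67.7, 75.1 and 72.1% at 30 °C. In XH7 it was 52.7 and 40.1% at 50 °C, against 53.3 and 52.2% at 30 °C. The change of the log2 ratio was -1.59 ± 0.21 in Z100 (adjusted p = 0.00034) and -0.37 ± 0.25 in XH7 (adjusted p = 0.22, limma), a difference between the strains of -1.22 ± 0.33 (adjusted p = 0.048). RPS27, a zinc-binding protein of the platform, went the other way: its ratio changed by -0.16 ± 0.17 in Z100 and by -1.24 ± 0.21 in XH7, a difference of 1.08 ± 0.28 (adjusted p = 0.048, limma). RPS25 changed by -0.26 ± 0.13 in Z100 and by 0.46 ± 0.16 in XH7, a difference of -0.72 ± 0.20 (adjusted p = 0.048, limma). These were the 3 small subunit pairs whose heat response differed between the strains, where 13.3% of all pairs did, and each call ended when most single libraries were left out.

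RPS29, a zinc-binding head protein, changed by 1.39 ± 0.28 in Z100 (adjusted p = 0.0034) and by 0.13 ± 0.34 in XH7 (adjusted p = 0.76), but the difference of 1.27 ± 0.45 did not pass (adjusted p = 0.12, limma). RPS30 changed by 0.46 ± 0.21 in Z100 and by 1.30 ± 0.26 in XH7. RPS0 changed by 0.56 ± 0.23 in Z100 and by 0.78 ± 0.28 in XH7, RPS1 by -0.10 ± 0.12 and by -0.56 ± 0.15, and RPS10 by -0.38 ± 0.14 and by -0.50 ± 0.17. These 4 were called in XH7, and the difference between the strains did not pass in any of them (adjusted p from 0.156 to 0.81, limma).

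Without heat shock 3 of 56 small subunit genes were called between Z100 and XH7. Of these, 1 was higher in Z100, where 14.3% of all genes were, and 2 were lower, where 14.1% were. The count ran from 1 to 6 when single libraries were left out, and it was 1 when any 30 °C library was the one left out. It was 16, with 2 higher and 14 lower, in a fit of the 30 °C groups alone, so the number of genes that differ is not settled. The share of all genes in that fit is not given here. The main model takes the spread of a gene from all 4 groups, and the 50 °C libraries varied more. In that model the median SE of the 56 genes at 30 °C was 0.407. The part of the 50 °C spread in these counts was not tested. The median log2 fold change of Z100 over XH7 was -0.13, against -0.08 for all genes. RPS14B was the gene that was higher. It had 461, 420 and 424 CPM in Z100 at 30 °C, against 153 and 142 CPM in XH7 at 30 °C, and the groups lay far apart. The log2 fold change was 1.56 ± 0.25 (SE, adjusted p = 0.0026, edgeR), and it stayed between 1.42 and 1.64 with an adjusted p of at most 0.0496 in all 21 alternatives. RPS14A had 1597, 3028 and 1817 CPM in Z100 at 30 °C, against 3490 and 3122 CPM in XH7 at 30 °C (-0.62 ± 0.37, adjusted p = 0.22, edgeR). Summed over both copies, RPS14 had 2058, 3448 and 2241 CPM in Z100, against 3643 and 3264 CPM in XH7, so that the sums overlapped. The ratio of A to B was lower in Z100 by 2.24 ± 0.28 on the log2 scale (adjusted p = 0.0013, limma), the largest strain difference in balance of any small subunit pair, and this call held in all alternatives.

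Rps14 is a platform protein beside the decoding region, and in yeast it is known to bind the RNA of RPS14B and so to lower the output of its own B copy. RPS14A is a gene of chromosome III. Its 166 tested genes had a median log2 fold change of -0.575 in Z100 over XH7 at 30 °C, with 7 higher and 71 lower. At 50 °C the median was -0.605, with 0 higher and 40 lower. Of all genes, 14.3% were higher and 14.1% lower at 30 °C, and 4.02% and 4.94% at 50 °C. The part of the RNA binding or of chromosome III in the balance of RPS14 was not tested. RPS14B ends 298 bases from the end of RPS22A, which runs towards it on the other strand of chromosome X. The libraries did not mark the strand, and the part of reads from RPS22A in the counts of RPS14B was not tested. RPS22A itself had -0.02 ± 0.46 between the strains at 30 °C.

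Both copies of RPS30 were lower in Z100. RPS30A had 367, 279 and 385 CPM in Z100 at 30 °C, against 781 and 754 CPM in XH7 at 30 °C, a log2 fold change of -1.16 ± 0.33 (adjusted p = 0.028, edgeR). RPS30B had 129, 87.5 and 156 CPM in Z100 at 30 °C, against 328 and 364 CPM in XH7 at 30 °C (-1.48 ± 0.49, adjusted p = 0.048, edgeR). The libraries of the strains did not overlap in either gene, but both calls ended when any library at 30 °C was left out. Without a Z100 library the adjusted p was up to 0.092 for RPS30A and 0.145 for RPS30B (edgeR). Both calls also ended under library size scaling and on log2 FPKM. The RPS30B call ended under all 3 other scalings, in limma-voom and without Z100 50 °C replicate 3 as well. RPS29A had a larger difference that did not pass, with 104, 72.4 and 95.7 CPM in Z100 at 30 °C, against 246 and 303 CPM in XH7 at 30 °C (-1.60 ± 0.55, adjusted p = 0.054, edgeR). RPS10B (-1.05 ± 0.58) and RPS21B (-1.05 ± 0.39) came next, and RPS2 (0.73 ± 0.42), RPS31 (0.37 ± 0.31) and RPS4A (0.36 ± 0.45) were among the highest after RPS14B. In 9 genes every Z100 library was above every XH7 library, where 31.8% of all genes were so, and in 25 every Z100 library was below, where 40.5% were.

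In balance, 6 of 24 pairs differed between the strains at 30 °C, 3 each way, where 18.3% of all 60 pairs did. Besides RPS14 these were RPS29 (-1.51 ± 0.31, adjusted p = 0.0145), RPS27 (-0.74 ± 0.19, adjusted p = 0.028), RPS21 (1.19 ± 0.23, adjusted p = 0.012), RPS25 (0.63 ± 0.14, adjusted p = 0.0185) and RPS4 (0.50 ± 0.13, adjusted p = 0.027), all from limma. The A share of RPS29 was 24.3 ± 4.6% in Z100, against 47.5 ± 5.3% in XH7, and that of RPS21 was 71.6 ± 3.7% in Z100, against 52.7 ± 0.8% in XH7 (SD, n = 3 and 2). The calls of RPS21, RPS25, RPS27 and RPS4 ended without either XH7 30 °C library, and that of RPS29 without XH7 30 °C replicate 2. Those of RPS27 and RPS4 also ended without Z100 30 °C replicate 2 or replicate 3 (adjusted p up to 0.097, limma) and with the replicate number as a block. The RPS25 call ended without Z100 30 °C replicate 2 (adjusted p = 0.061, limma), and the RPS27 call with a spread that follows the level. Of the 13 genes that control this regulon, 0 were higher and 3 lower in Z100 at 30 °C, where 14.3% and 14.1% of all genes were. At 50 °C 1 was higher and 2 lower, where 4.02% and 4.94% were. IFH1 was lower in Z100 by 1.23 ± 0.34 at 30 °C and by 1.52 ± 0.35 at 50 °C (adjusted p = 0.026 and 0.031, edgeR). REB1 had means of 42.2 CPM in Z100 and 72.4 CPM in XH7 at 30 °C, and of 165 and 97.7 CPM at 50 °C. Of the 7 partner genes, 0 were higher and 2 lower in Z100 at 30 °C. These were LTV1 (-1.30 ± 0.34) and YAR1 (-1.41 ± 0.25, adjusted p = 0.022 and 0.0042, edgeR).

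**Figure D5:**
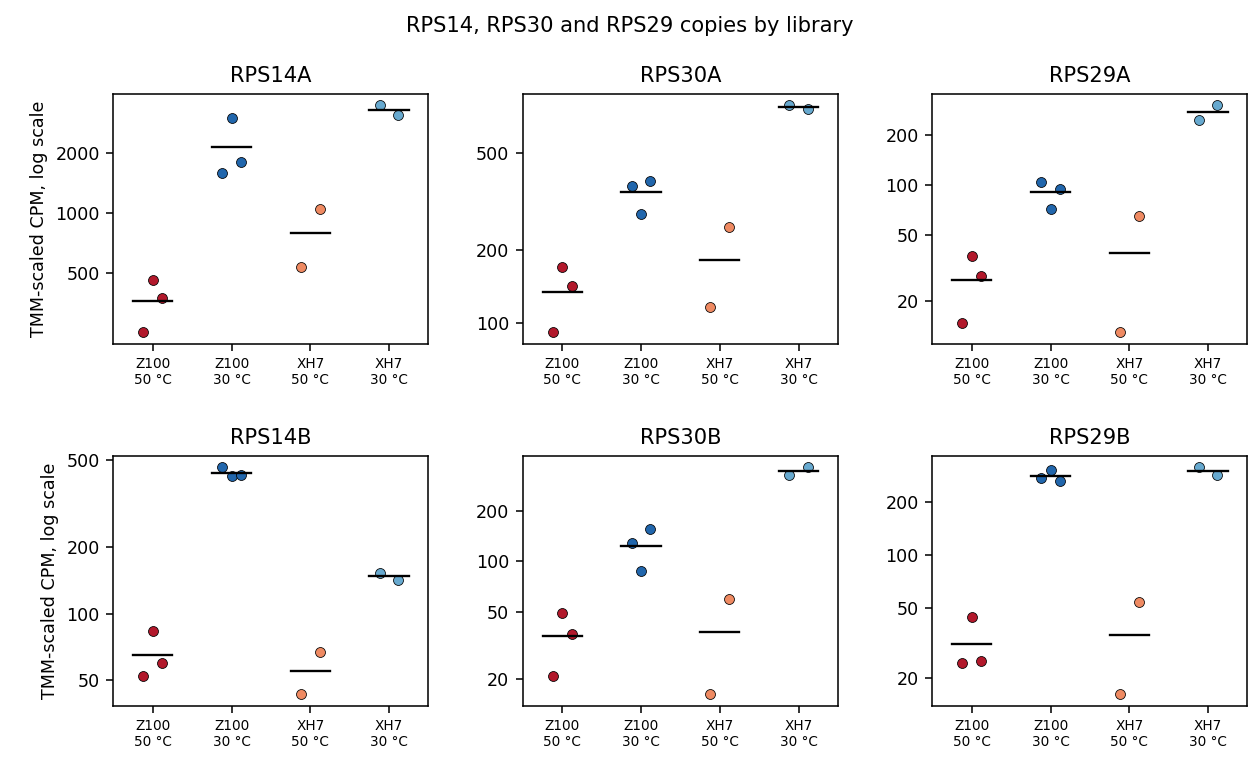
TMM-scaled CPM of the copies of RPS14, RPS30 and RPS29 in each library, on log scales that differ between panels, with 1 point per library and the group mean as a line. RPS14B stands at 420 to 461 CPM in Z100 at 30 °C and at 142 to 153 CPM in XH7 at 30 °C, while both RPS30 copies and RPS29A are lower in Z100 than in XH7 at 30 °C.

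After heat shock none of the 56 genes was called between Z100 and XH7 by edgeR, where 4.02% of all genes were higher and 4.94% lower. At an unadjusted p under 0.05 there was 1, RPS14A, and DESeq2 called 1 and limma-voom 0. For these counts the share of all genes is not given here. RPS14A had 252, 461 and 375 CPM in Z100 at 50 °C, against 537 and 1047 CPM in XH7 at 50 °C, with no overlap (-1.13 ± 0.37, adjusted p = 0.085, edgeR). It was the 1 gene with every Z100 library below every XH7 library, where 18.4% of all genes were so, and RPS22B (0.65 ± 0.29) was the 1 gene the other way, where 18% were. The next lowest values were in RPS20 (-0.67 ± 0.52), RPS10B (-0.60 ± 0.59), RPS29A (-0.55 ± 0.55) and RPS30A (-0.43 ± 0.33), and each of these 4 turned positive without XH7 50 °C replicate 2. The highest were in RPS2 (0.82 ± 0.42), RPS9B (0.75 ± 0.51), RPS0B (0.54 ± 0.47) and RPS9A (0.47 ± 0.33). Without that library some of the 56 genes were called higher in Z100. Then 1 XH7 library at 50 °C remained, and the share of all genes is not given here. Standard errors ran from 0.24 to 0.64 over the 56 genes. RPS14B itself had 52.2, 83.4 and 59.4 CPM in Z100 at 50 °C, against 43.0 and 66.7 CPM in XH7 at 50 °C (0.24 ± 0.24).

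In balance, 2 of 24 pairs differed between the strains at 50 °C, where 8.33% of all pairs did. For RPS14 the log2 ratio of A to B was lower in Z100 by 1.34 ± 0.28 (adjusted p = 0.023, limma). This call ended without Z100 50 °C replicate 1 or replicate 2 (adjusted p up to 0.075, limma).

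The heat response of single genes was not called as different between Z100 and XH7 in any of the 56 genes by edgeR, where 1.63% of all genes were called higher and 2.64% lower. At an unadjusted p under 0.05 there were 2, and DESeq2 called 1 and limma-voom 0. For these counts the share of all genes is not given here. RPS14B came nearest, with -1.32 ± 0.34 (adjusted p = 0.058, edgeR): its log2 fold change with heat was -2.74 ± 0.23 in Z100, against -1.43 ± 0.27 in XH7. After it the lowest included RPS31 (-0.70 ± 0.44), RPS14A and RPS16A (both -0.50, SE 0.53 and 0.56), and the highest RPS30B (1.39 ± 0.71), RPS27A (1.19 ± 0.50), RPS29A (1.05 ± 0.79), RPS9B (0.97 ± 0.71) and RPS26B (0.89 ± 0.91). Without XH7 50 °C replicate 2, some of the 56 genes were called as higher in Z100. That fit kept 1 XH7 library at 50 °C, and the share of all genes is not given here.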

How the data were processed

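Total RNA was extracted with TRIzol, selected for poly(A), made into libraries with the NEBNext Ultra kit, an unstranded method, and sequenced on an Illumina NovaSeq, per the labels' protocols. The authors deposited raw counts per gene and, in a second table, FPKM. Deposited counts divided by FPKM gave a gene length 1.00182 times the R64 coding length in all 56 genes, so introns were not part of that length. Whether reads within introns were counted cannot be told from it. Transcript counts equalled the gene counts and were not used further. The aligner, counting tool, read length and handling of ambiguous reads were not given in the sources used here. Positions in the tables matched R64 genes for 56 of 56 members, RPS20 and RPS30A under slightly different identifiers. The table had 3 empty lines, and no column belonged to a sample outside the series.

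Counts were tested with edgeR 4.0.16 (R 4.3.3): TMM scaling, filterByExpr (6015 genes, all 56 members among them), a quasi-likelihood F test in a model of 4 group means over 10 libraries, and Benjamini-Hochberg adjustment over 6015 genes at 0.05. The common biological coefficient of variation came to 0.238. CPM are TMM-scaled counts per 1e+06 reads. The log2 ratio of A to B, with 0.5 added to each count, was tested with limma 3.58.1 over all 60 A/B pairs, adjusted over those pairs in each of 5 comparisons. Alternatives were DESeq2 1.42.0, limma-voom, limma on log2(FPKM + 1), 3 other scalings, 2 other filters, a replicate block, fits of the compared groups alone, leaving out each library and, added after seeing the data, leaving out both replicate 2 libraries at 50 °C. For the pair ratio they also included 5 in place of 0.5, a ratio of FPKM + 0.1, a spread that follows the level, and only ribosomal protein pairs. A group reduced to 1 library took its spread from the remaining groups. The procedures were tested on simulated data. Sequence features were read from the R64 genome and RefSeq annotation with Python 3.11.15 and Biopython 1.88.

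Members and lists were chosen with earlier results of these data known. Per comparison the text names the 5 highest and 5 lowest log2 fold changes, genes outside the common call, single-copy genes, called pairs and the 4 pairs with the most and the 4 with the least uneven A share. Some members are counted but not reported by name here. Other names were chosen after their values were seen. The check of the replicate numbers is given with the alternatives.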

Additional observations from a re-analysis of the deposited data

Results flagged for a closer look

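The change with heat shock in the log2 ratio of A to B counts differed between Z100 and XH7 in 3 small subunit pairs by a test of the difference itself (limma, adjusted over 60 pairs). That is 3 of 24, where 13.3% of all 60 pairs differed, so the count lies near that share. The 60 pairs include these 24 and 32 large subunit pairs, so they are no background of other genes. For RPS21 the change in Z100 minus that in XH7 was -1.22 ± 0.33, for RPS25 it was -0.722 ± 0.20 and for RPS27 it was 1.08 ± 0.28 (SE, adjusted p = 0.048 for each). In RPS21 the A shares at 50 °C were 45.7% in Z100 and 46.4% in XH7, and at 30 °C 71.6% in Z100 and 52.7% in XH7. In RPS27 the shares at 50 °C were 24.97% in Z100 and 20.8% in XH7, and at 30 °C 27.1% in Z100 and 38.1% in XH7. In RPS25 they were 82.3% in Z100 and 83.2% in XH7 at 50 °C, and 84.8% in Z100 and 78.4% in XH7 at 30 °C. These calls are close to the threshold: the RPS21 and RPS25 calls ended in 11 of 16 alternatives and the RPS27 call in 12 of 16, with adjusted p-values up to 0.17.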

How the results depend on the processing

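The 56 falls with heat in each strain were called under every alternative, with library size scaling moving the median of all genes to -0.68 in Z100 and -0.54 in XH7 and that of the 56 genes to -3.52 and -3.44. Under that scaling 3087 of all genes were lower and 1208 higher in Z100, against 2175 and 2031 with TMM, and 2602 lower and 1192 higher in XH7, against 1927 and 1881. Between the strains the counts were less settled, and the shares of all genes called under the same alternatives are not given here. At 30 °C, where 3 genes were called, library size scaling and log2 FPKM each gave 1, DESeq2 5, a fit of those groups alone 16, and leaving out both replicate 2 libraries at 50 °C 15. At 50 °C and in the difference of the heat responses, with 0 called, DESeq2 gave 1 and 1 and the fit without both replicate 2 libraries 11 and 20. Of the pair counts, the compared groups alone gave 7 in place of 16 for heat in XH7, 10 in place of 6 at 30 °C and 1 in place of 2 at 50 °C. Without both replicate 2 libraries the counts were 4 at 50 °C and 5 in the difference, and with ribosomal protein pairs only the difference had 0 in place of 3. Leaving out single libraries gave gene counts of 56 to 56 with heat in both strains, 1 to 6 at 30 °C, 0 to 5 at 50 °C and 0 to 10 in the difference. Pair counts then ran from 9 to 17 for heat in XH7, 9 to 15 for heat in Z100, 1 to 8 at 30 °C, 0 to 5 at 50 °C and 0 to 8 in the difference.

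Signs turned at 50 °C when single libraries were left out, with ranges of -1.394 to 0.886 in RPS20, -1.319 to 0.973 in RPS10B, -1.284 to 1.093 in RPS29A and -0.875 to 0.255 in RPS30A, the lowest without XH7 50 °C replicate 1 and the highest without replicate 2. They also turned without both replicate 2 libraries (0.51, 0.49, 0.75 and 0.022), and in RPS0B, which ran from -0.014 without Z100 50 °C replicate 2 to 1.383 without XH7 50 °C replicate 2. In the difference of heat responses the ranges were -0.906 to 0.020 in RPS14A and -1.078 to 0.442 in RPS16A, again lowest without XH7 50 °C replicate 1 and highest without replicate 2, and RPS16A had 0.0996 without both replicate 2 libraries. None of the values of changed sign was called. The difference of heat responses needs all 4 groups, so it has no fit of compared groups alone. The cause was not tested.

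Z100 and XH7 libraries of 1 number had correlated deviations at 50 °C (0.635 and 0.529) and not at 30 °C (-0.107 and -0.145). With 2 XH7 libraries per group their deviations mirror each other, so the values of a temperature are not independent. The main model did not take the numbers as pairs, so an effect shared by number at 50 °C stays in its spread. A block by number assumes the same effect at both temperatures and does not model an effect at 50 °C alone. With the replicate number as a block the pair count of the difference was 0 in place of 3, and no other count moved by more than 1.5 times. Of 1608 values of named genes and pairs under alternatives, 1441 kept direction and side of the threshold, 120 lost the call, 35 gained it and 12 changed sign. The number of libraries, 2 in each XH7 group, and the spread at 50 °C limit what could be called.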
